A study of Rattus norvegicus with 12 samples.

Results

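The 9 genes described here are striatal genes of cAMP signalling downstream of dopamine receptors, or of signalling linked to it. They are *Ppp1r1b*, *Adcy5*, *Gnal*, *Gng7*, *Pde10a*, *Pde1b*, *Rgs9*, *Rasgrp2* and *Ptpn5*. They were picked by symbol, and all 9 were found among the 17337 genes of the count table. RNA was sequenced from the whole striatum of 12 wild-type (WT) male Sprague–Dawley rats. By the labels, every rat had 16 days of self-administration of methamphetamine (MA), a psychostimulant that releases dopamine. In the study, rats pressed a lever for intravenous infusions. The 4 MA12 rats were killed 12 h after their last session and the 4 MA24 rats 24 h after it. The labels call a further 4 rats non-addicted after the same 16 days and do not say what decided this or how long after the last session they were killed. The study's methods state that the rats of the abstinence groups were chosen for stable lever pressing and say nothing of the non-addicted rats. Adult animals were used, each library came from 1 rat, and all 12 libraries carry the same batch label. The study also describes a saline group and a group killed without abstinence, and no library used here is labelled as either. Which of the study's groups the non-addicted rats belong to, if any, is not stated. Because 12 h separated the kill times of MA12 and MA24, the time of day and the length of abstinence cannot be told apart.

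Most neurons of the striatum are GABAergic projection neurons that carry either the D1 or the D2 dopamine receptor. At the D1 receptor, dopamine acts through a G protein that contains the Golf alpha subunit and a gamma subunit encoded by *Gng7*, and this G protein activates adenylyl cyclase 5. The resulting cAMP activates protein kinase A (PKA), while the D2 receptor inhibits the same cyclase and phosphodiesterases break cAMP down. PKA phosphorylates DARPP-32, the product of *Ppp1r1b*, which then inhibits protein phosphatase 1. These genes are known for high expression in the striatum, and loss of striatal projection neurons lowers them.

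The start of a gene is where transcription factors such as CREB, the factor that PKA activates, can bind the cAMP response element (CRE, letters TGACGTCA). RefSeq promoter sequences of the GRCr8 build were matched by symbol for 7 of the 9 genes, with no match for *Ppp1r1b* and *Pde1b*. The 250 bases before the start are shown for 3 genes, *Pde10a*, *Rgs9* and *Rasgrp2*, which had the largest differences between MA24 and MA12. Capitals mark the CRE core TGACG or its reverse complement CGTCA. The windows are chr1:54765669-54765918 (minus strand) for *Pde10a*, chr10:94770388-94770637 (minus strand) for *Rgs9* and chr1:213136484-213136733 (plus strand) for *Rasgrp2*, each written 5′ to 3′ along the gene's strand.
Pde10a: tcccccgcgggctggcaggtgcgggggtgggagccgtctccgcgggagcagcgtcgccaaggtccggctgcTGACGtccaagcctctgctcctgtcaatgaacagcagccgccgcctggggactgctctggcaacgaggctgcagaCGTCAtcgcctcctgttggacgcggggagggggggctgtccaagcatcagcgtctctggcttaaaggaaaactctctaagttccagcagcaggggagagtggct
Rgs9: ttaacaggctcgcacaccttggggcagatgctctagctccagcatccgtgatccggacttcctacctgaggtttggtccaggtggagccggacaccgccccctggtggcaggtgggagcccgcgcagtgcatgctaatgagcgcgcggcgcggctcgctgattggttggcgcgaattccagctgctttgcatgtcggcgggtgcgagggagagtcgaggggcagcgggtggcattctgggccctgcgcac
Rasgrp2: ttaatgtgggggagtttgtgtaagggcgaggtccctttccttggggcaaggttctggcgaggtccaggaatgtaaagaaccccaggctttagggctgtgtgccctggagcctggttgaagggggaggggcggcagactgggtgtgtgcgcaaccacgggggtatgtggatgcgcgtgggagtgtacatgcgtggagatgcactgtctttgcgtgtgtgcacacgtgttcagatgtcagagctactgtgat
The *Pde10a* window held 2 cores, which began 179 and 104 bases before the start. RefSeq gives *Pde10a* another start, whose window (chr1:54501207-54501456, minus strand) held 0 cores. The first *Pde10a* window was the only 1 of the 8 windows of these genes with a core, and the full CRE was in 0 of the 8. Searched on both strands in the same way, 18.2% of 33469 promoters held the core, which every full CRE also contains, and 1.59% held the full CRE. Neither motif was found in the *Rgs9* and *Rasgrp2* windows.

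Total counts per rat lay between 17908962 and 23850284. Each of the 9 genes had at least 4478 counts in every rat, so counting error alone was at most 1.49% (SD). Together they held 1.44% to 1.95% of all counts in a rat. Levels are given as CPM, a gene's count relative to the total of its library, scaled by TMM, which corrects for library composition. CPM does not account for transcript length, so levels were compared between rats and not between genes. Markers of striatal projection neurons, such as *Penk* and *Drd2*, were all detected (12 of 12). In bulk tissue, fewer cells of a type and less RNA per cell cannot be told apart.

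The first comparison, MA24 vs MA12, shows what differed between the longer and the shorter abstinence. *Rasgrp2* was the 1 gene of the 9 that passed the test, and it was higher in MA24. *Rgs9*, *Ptpn5*, *Ppp1r1b* and *Gng7* had higher means in MA24 without passing it, and *Pde10a* had a lower mean. *Adcy5* and *Pde1b* had nearly equal means, and *Gnal* was slightly lower in every MA24 rat.

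*Rasgrp2* encodes CalDAG-GEFI, an exchange factor that activates the small GTPase Rap1 in response to calcium and diacylglycerol. Its levels were 207, 231, 257 and 263 CPM in the MA12 rats 21, 31, 4N and 7N. They were 281, 346, 309 and 333 CPM in the MA24 rats 9N, 14N, 15N and 16N. The groups did not overlap. The means were 239 ± 25.6 and 317 ± 28.8 CPM (SD, n = 4 each), a 1.35-fold difference (log2FC 0.43, SE 0.11, adjusted p = 0.0367, edgeR quasi-likelihood test). Without the filter on low variance the log2FC was 0.41 and the adjusted p 0.0329. The call was lost when MA12 rat 21 (adjusted p = 0.103), MA12 rat 31 (0.0869), MA24 rat 14N (0.0962), MA24 rat 15N (0.0669) or MA24 rat 16N (0.0907) was left out, with log2FC between 0.37 and 0.45. It was also lost between rats whose number ends in N (log2FC 0.29, adjusted p = 0.293) and with the kind of number as a covariate (log2FC 0.30, adjusted p = 0.254). The non-addicted rats 9, 11, 12 and 13 had 297, 221, 242 and 267 CPM, with rat 9 above the lowest MA24 rat and the other three below it.

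*Rgs9* encodes a GTPase-activating protein whose brain form shortens dopamine receptor signals. It measured 683, 769, 882 and 950 CPM in MA12 and 972, 1128, 1009 and 1024 CPM in MA24, again with no overlap. The means were 821 ± 118 and 1033 ± 66.8 CPM. The difference did not pass the threshold (log2FC 0.36, SE 0.12, adjusted p = 0.0842) and, of the 8 rats left out in turn, passed it only without MA12 rat 7N (log2FC 0.45, adjusted p = 0.0463). The non-addicted rats had 893, 747, 792 and 936 CPM, all below the MA24 rats and within the MA12 range.

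*Ptpn5* encodes STEP, a striatum-enriched tyrosine phosphatase that PKA inhibits by phosphorylation. The MA12 rats had 956, 982, 1116 and 1105 CPM and the MA24 rats 1143, 1364, 1120 and 1254 CPM. The groups were apart by a few CPM, between MA12 rat 4N and MA24 rat 15N (log2FC 0.26, SE 0.11, adjusted p = 0.155). The non-addicted rats lay close together, at 1130, 1042, 1077 and 1098 CPM.

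*Ppp1r1b* was measured at 5904, 6531, 8001 and 8552 CPM in MA12. The MA24 rats had 8744, 8548, 8111 and 9921 CPM, so both MA12 rats numbered with N reached close to or into the MA24 range. Its log2FC was 0.31 (SE 0.13, adjusted p = 0.173). The non-addicted rats had 7407, 6826, 6453 and 8363 CPM, with a mean of 7262 ± 832 CPM beside 7247 ± 1237 CPM in MA12.

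*Gng7*, the gamma subunit of the striatal G protein, measured 1571, 2145, 2612 and 2175 CPM in MA12 and 2539, 2298, 2624 and 2947 CPM in MA24. MA12 rat 21 was the lowest of all 12 rats and rat 4N was inside the MA24 range (log2FC 0.32, SE 0.14, adjusted p = 0.188). Without rat 21 the log2FC was 0.19 (adjusted p = 0.397). The non-addicted rats had 2015, 2150, 2200 and 2444 CPM.

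*Gnal*, which encodes the Golf alpha subunit, lay in a narrow range. It measured 670, 674, 708 and 722 CPM in MA12 and 659, 640, 653 and 601 CPM in MA24. Every MA24 rat was below every MA12 rat, by a small margin. The filter on low variance removed the gene from this comparison, and the fit without it gave a log2FC of -0.12 (SE 0.07, adjusted p = 0.316). In the non-addicted rats *Gnal* spread over both ranges, at 742, 582, 701 and 654 CPM.

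*Adcy5*, the main adenylyl cyclase of the striatum, measured 1699, 2006, 2322 and 2027 CPM in MA12 and 2138, 1520, 1910 and 2133 CPM in MA24. The non-addicted rats had 1487, 1806, 1784 and 2018 CPM. The groups overlapped in all 3 comparisons, and the log2FC between MA24 and MA12 was -0.04 (SE 0.13, adjusted p = 0.896).

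Both phosphodiesterases among the 9 genes break down cAMP and cGMP. *Pde10a*, which is concentrated in striatal projection neurons, measured 579, 575, 703 and 584 CPM in MA12 but 546, 299, 448 and 471 CPM in MA24. The groups did not overlap, with MA24 rat 14N lowest of all rats and MA12 rat 4N highest. The means were 610 ± 62.1 and 441 ± 103 CPM (log2FC -0.44, SE 0.15, adjusted p = 0.0887). Without MA24 rat 14N the log2FC was -0.29 (adjusted p = 0.198), and without MA24 rat 9N it was -0.56 and passed the test (adjusted p = 0.0350). The non-addicted rats had 344, 472, 495 and 519 CPM, also all below the MA12 rats. *Pde1b*, a phosphodiesterase activated by calcium and calmodulin, measured 1343, 1407, 1666 and 1648 CPM in MA12, 1628, 1230, 1440 and 1619 CPM in MA24 and 1259, 1244, 1364 and 1496 CPM in the non-addicted rats. Its groups overlapped throughout (log2FC between MA24 and MA12 -0.01, SE 0.12, adjusted p = 0.975).

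**Figure D1:**
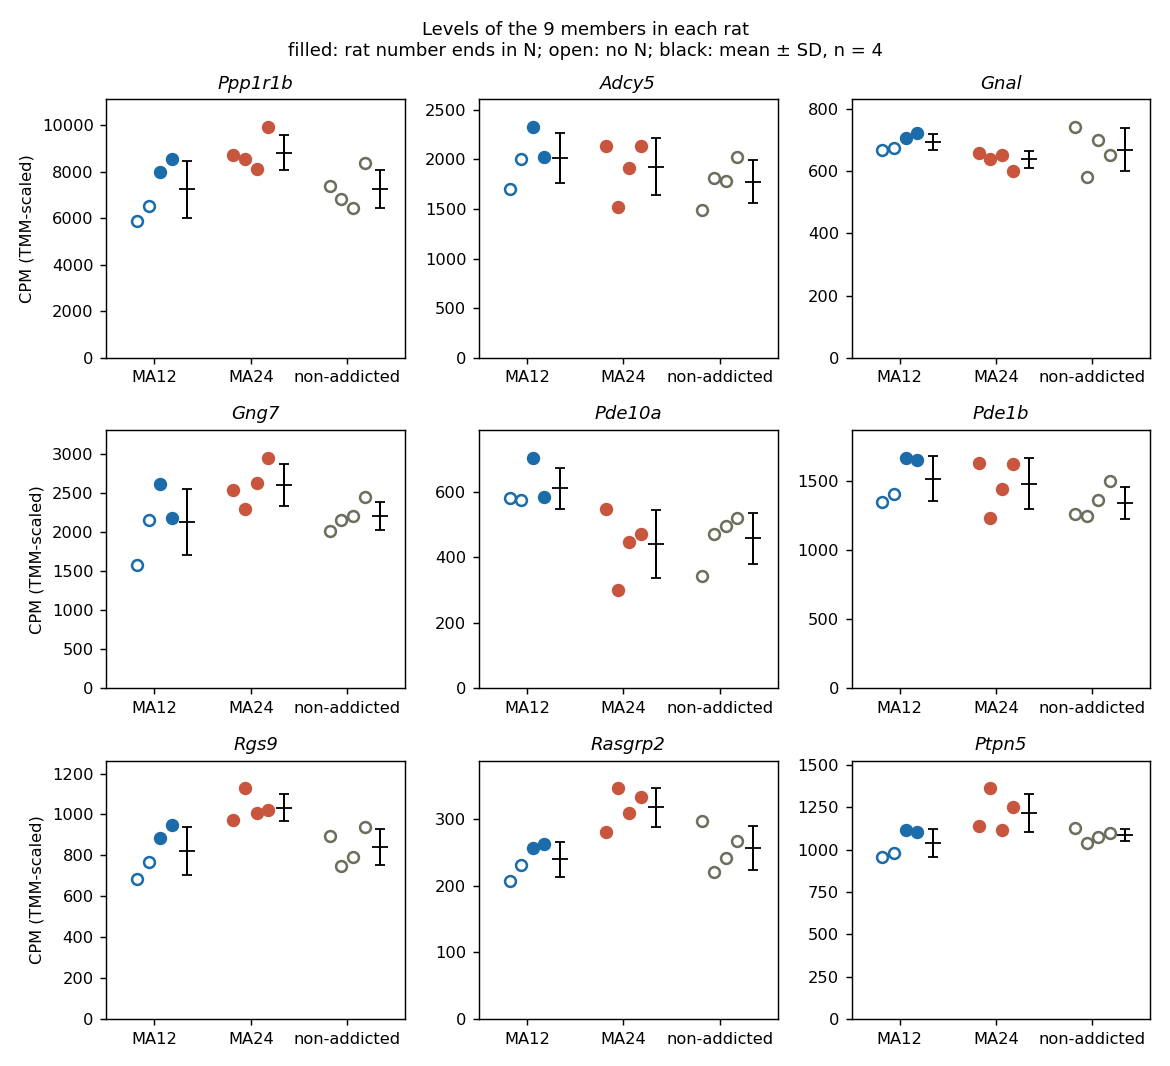
Levels of the 9 genes in each rat in CPM (vertical axes from 0, 1 panel per gene) by group, with filled points for rats whose number ends in N, open points for the others, and black bars for the mean ± SD (n = 4). The MA24 rats lie above every MA12 rat for *Rgs9*, *Rasgrp2* and *Ptpn5* and below every MA12 rat for *Pde10a* and *Gnal*, and within MA12 the filled points lie above the open ones in every panel.

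Of the 8 genes tested in MA24 vs MA12, 1 passed an adjusted p of 0.05 beside 4.20% of the 10754 genes tested (1.96% higher and 2.24% lower in MA24). No fitted difference of the 9 genes reached an FC of 1.5 in any comparison. At an unadjusted p below 0.05 there were 6 of the 8, beside 23.3% of the 10754 genes (2509). DESeq2 called 3 of the 8, beside 10.6% of the 9919 genes for which it gave an adjusted p. They were *Rasgrp2* (DESeq2 adjusted p = 0.00354), *Rgs9* (0.0259) and *Pde10a* (0.0422). The groups were apart for 5 of the 9, with 3 higher and 2 lower in MA24, beside 14.4% of the 12652 genes with a mean count above 4. The median log2FC of the 9 genes was 0.23, beside -0.00 over those 12652 genes.

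In non-addicted vs MA12, edgeR called 0 of the 8 genes tested and DESeq2 also called 0, beside 0.102% of 10758 genes with edgeR and 1.96% of 9709 with DESeq2. At an unadjusted p below 0.05 there was 1 of the 8, *Pde10a* (log2FC -0.42, SE 0.13, adjusted p = 0.185), beside 12.5% of all genes (1347). It was also the 1 gene of the 9 with groups apart, beside 6.65% of 12657 genes. The other log2FC values lay between -0.19 for *Adcy5* and 0.09 for *Rasgrp2*.

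In non-addicted vs MA24, both tools called 0 of the 9 genes, beside 0.168% of 10744 genes with edgeR and 2.62% of 10112 with DESeq2. At an unadjusted p below 0.05 there were 4 of the 9, all with lower means in the non-addicted rats, beside 17.6% of all genes (1892). They were *Rasgrp2* (log2FC -0.33, adjusted p = 0.151), *Rgs9* (-0.32, 0.140), *Ppp1r1b* (-0.30, 0.175) and *Gng7* (-0.26, 0.207). All MA24 rat numbers end in N and those of the non-addicted rats do not, so these rats alone cannot give a value adjusted for the kind of number. A fit of all 12 rats with this kind as a covariate takes the adjustment from the MA12 rats, the only group with both kinds. In that fit the direction turned for *Ppp1r1b* (0.14), *Gng7* (0.13) and *Rgs9* (0.05), while *Rasgrp2* was at -0.05. The adjusted p was at least 0.951 for these 4 genes. *Rgs9* was the 1 gene of the 9 with groups apart, beside 9.39% of 12640 genes. The 3 comparisons share rats, so their values are not independent of each other.

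**Figure D2:**
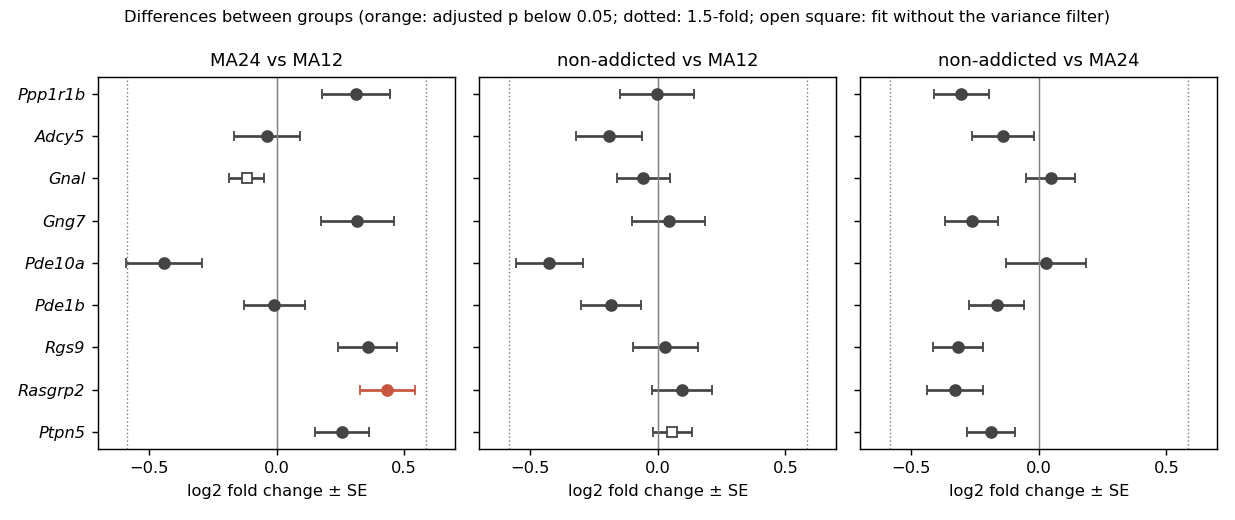
Fitted log2 fold changes ± SE of the 9 genes (horizontal axis) in the 3 comparisons (1 panel each), first group minus second, with an open square where the value comes from the fit without the variance filter and dotted lines at an FC of 1.5. *Rasgrp2* in MA24 vs MA12, in orange, is the 1 value with an adjusted p below 0.05, at a log2FC of 0.43, and no value lies beyond a dotted line.

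The rat numbers divide the libraries. They end in N in 2 of the 4 MA12 rats and in all 4 MA24 rats, and in none of the non-addicted rats, and the labels do not say what N means. Within MA12, both rats with N were above both rats without it for 9 of the 9 genes, beside 19.2% of genes with a mean count above 4. For *Ppp1r1b* the rats without N had 5904 and 6531 CPM and those with N 8001 and 8552 CPM. The gap was small for *Pde10a*, with 579 and 575 CPM without N and 703 and 584 CPM with N. All 9 genes were measured in the same 4 rats, so these are not separate observations. In MA24 vs MA12, the kind of number was entered as a covariate in a fit of all 12 rats, in which the MA12 rats alone hold both kinds. The log2FC then fell to 0.10 for *Ppp1r1b*, 0.13 for *Gng7*, 0.18 for *Rgs9*, 0.15 for *Ptpn5* and 0.30 for *Rasgrp2*, from 0.31, 0.32, 0.36, 0.26 and 0.43 without it. For *Pde10a* it was -0.53, beside -0.44. The values of *Adcy5* and *Pde1b* moved from near 0 to -0.16 and -0.15. None of these 8 genes was called with the covariate (adjusted p at least 0.176). Between rats with N only, 2 MA12 and 4 MA24, the values were similar, such as 0.12 for *Gng7* and -0.54 for *Pde10a*, and 0 of the 8 genes with a value there were called (edgeR; *Ppp1r1b* was removed by the variance filter). The 8 rats of non-addicted vs MA24 share no kind of number, so within them the kind and the group cannot be told apart.

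Other measures moved with the levels of some of these genes. The TMM factor, which scales for composition, was 1.06 and 1.04 in the MA12 rats 21 and 31 and 0.973 and 0.989 in 4N and 7N. In MA24 it ran from 0.959 to 0.990, and in the non-addicted rats from 0.976 to 1.03. Over the 12 rats its log2 had a Pearson r of -0.96 with the log2 CPM of *Ppp1r1b*, and -0.93 when CPM was not scaled by the factor. With scaled CPM, the r of the other genes ran from -0.88 for *Gng7* to 0.05 for *Pde10a* and 0.15 for *Gnal*. The summed level of 33 complex I subunit genes (Nduf), chosen after their likeness to these genes was seen, ran from 4594 to 5638 CPM and had an r of 0.90 with *Rasgrp2* and -0.70 with *Pde10a*. Unscaled, these were 0.73 and -0.81. The complex I sum was highest in MA24 rat 14N (5638 CPM) and non-addicted rat 9 (5306 CPM). Each of these rats had the highest *Rasgrp2* and the lowest *Pde10a* of its group. The scaled r of the other genes lay between -0.34 for *Adcy5* and 0.85 for *Rgs9*, with 0.03 for *Gnal* and -0.06 for *Pde1b*. Markers of 3 other cell classes also stood higher in MA24 than in the non-addicted rats. The summed level of 6 oligodendrocyte markers was 12147 to 21721 CPM in MA12, 18089 to 21238 CPM in MA24 and 11664 to 17294 CPM in the non-addicted rats. The sum of 5 endothelial markers was 387 to 504, 460 to 508 and 285 to 403 CPM in the same order, and that of 6 interneuron markers 290 to 366, 358 to 413 and 308 to 336 CPM. No marker of these 3 lists was called in MA24 vs MA12, and none was at 0. The 12 markers of projection neurons summed to 7862 to 9378 CPM in MA12, 8267 to 8759 CPM in MA24 and 7161 to 8477 CPM in the non-addicted rats, so these groups overlapped, and 1 of them, *Pdyn*, was called in MA24 vs MA12. The 4 thalamic markers summed to 28.8 to 58.5 CPM in MA12, 23.7 to 27.9 CPM in MA24 and 24.4 to 68.6 CPM in the non-addicted rats, with *Prkcd* called in MA24 vs MA12 and *Lhx9* under 10 counts in every library. The summed markers of astrocytes, microglia, hypothalamus, and ependyma and choroid plexus overlapped between MA12 and MA24. The part of these measures in the results was not tested.

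Some of the 9 genes varied together across the 12 rats. *Rgs9* and *Rasgrp2* were the closest pair, with a Pearson r of 0.95 of their log2 CPM and a Spearman rho of 0.95. This r was 0.90 without the 2 rats farthest from the median of *Rgs9*, and 0.89 relative to the group means. *Ptpn5* followed both, with an r of 0.92 with *Rasgrp2* and 0.90 with *Rgs9*. *Ppp1r1b* had an r of 0.90 with *Rgs9* and 0.81 with *Gng7*. The r of *Gng7* with the other three rested on few rats: without the 2 farthest it fell from 0.65 to 0.28 with *Rasgrp2*, from 0.61 to 0.22 with *Ptpn5* and from 0.71 to 0.45 with *Rgs9*. *Adcy5* had an r of 0.90 with *Pde1b*, and 0.87 without the 2 farthest rats. Its r of 0.80 with *Pde10a* fell to 0.45 without them. Without the 2 farthest rats *Adcy5* also had an r of 0.66 with *Rgs9*, 0.57 with *Rasgrp2* and 0.62 with *Ptpn5*. Over all 12 rats these were 0.07, -0.10 and -0.12, and relative to the group means 0.11, -0.12 and -0.13. Relative to the group means *Adcy5* had an r of 0.83 with *Gng7* and 0.51 with *Ppp1r1b*. Whether these genes divide into separate sets therefore changed with the rats and the measure used. *Pde10a* ran against *Rasgrp2* (r = -0.62, rho = -0.65, and -0.36 without the 2 farthest rats). For *Gnal* the r with the other genes lay between -0.29 and 0.16 over the 12 rats. It changed with the rats used, to 0.56 with *Pde10a* and -0.62 with *Rasgrp2* without the 2 farthest rats, and to 0.53 with *Rasgrp2* relative to the group means. These are descriptions of 36 pairs in the same 12 libraries, which share their scaling and composition.

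**Figure D3:**
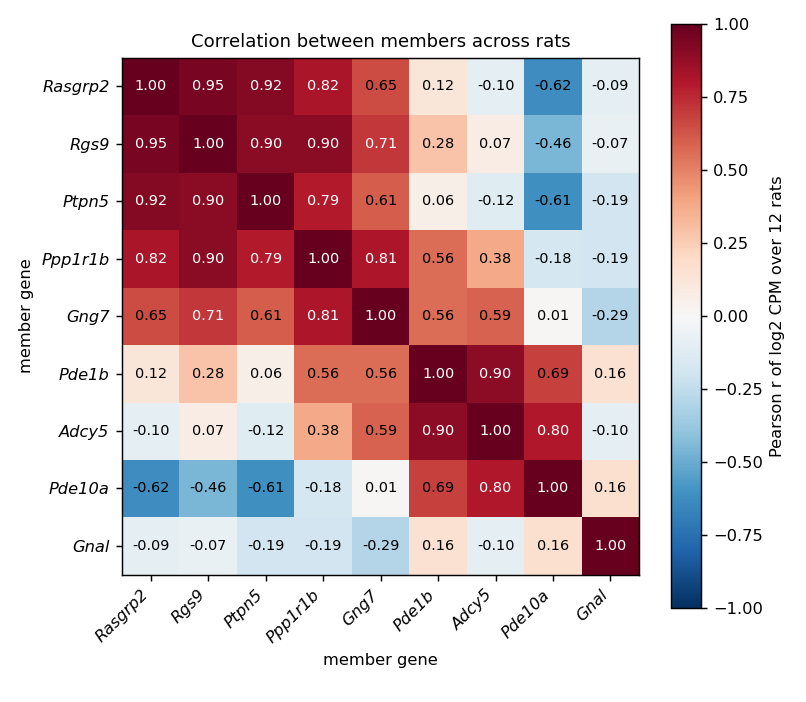
Pearson r of log2 CPM over the 12 rats for each pair of the 9 genes (rows and columns), coloured from blue at -1 to red at 1. *Rasgrp2*, *Rgs9*, *Ptpn5*, *Ppp1r1b* and *Gng7* have r between 0.61 and 0.95 with each other over all 12 rats, *Pde1b*, *Adcy5* and *Pde10a* between 0.69 and 0.90, and *Gnal* at most 0.16 with any gene.

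Genes besides these 9 followed similar patterns. The other listed pathway genes were not left out of this search. Among 10756 other genes with a mean count of at least 50, those most like the mean of the 9 genes were *Clptm1*, *Cdk5r2*, *Mgat5b*, *Aldh7a1* and *Adra2c*, with r between 0.94 and 0.97. The closest gene was *Ctxn1* for *Rasgrp2* (r = 0.98), *Chrm4* for *Rgs9* (0.97), *Ndufa11* for *Ptpn5* (0.98), *Eef1a2* for *Ppp1r1b* (0.97) and *Ppp1r9b* for *Gng7* (0.97). It was *Prex1* for *Pde10a* (0.98), *Tmem151b* for *Adcy5* (0.96), *Lingo3* for *Pde1b* (0.94) and *Ywhaz* for *Gnal* (0.90). An r of at least 0.8 was reached by 527 genes with *Pde10a* (4.90%) and by 346 with *Rasgrp2* (3.22%), but by only 47 with *Gnal* (0.437%).

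The receptors that feed this pathway were not called in any comparison. *Drd1* had 459 ± 23.1 CPM in MA12, 421 ± 31.0 in MA24 and 458 ± 44.0 in the non-addicted rats (SD, n = 4 each). For *Drd2* the means were 451 ± 61.6, 466 ± 41.8 and 457 ± 33.8 CPM. The log2FC between MA24 and MA12 was -0.10 for *Drd1* (SE 0.09, adjusted p = 0.551) and 0.07 for *Drd2* (SE 0.12, adjusted p = 0.757). *Adora2a*, the adenosine receptor that raises cAMP in neurons with the D2 receptor, had 917 ± 121, 997 ± 52.4 and 884 ± 53.1 CPM. It was removed by the variance filter in MA24 vs MA12, and without the filter its log2FC was 0.12 (SE 0.09, adjusted p = 0.466).

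Of 76 other genes of the pathway that were listed, 72 were in the table, and 60 of these were tested in MA24 vs MA12. The test called 1 higher and 4 lower in MA24, beside 4.20% of all genes in both directions, and left 55 uncalled. *Rap1gap*, which inactivates Rap1, had 945 ± 86.0 CPM in MA12 and 1347 ± 119 CPM in MA24 (log2FC 0.54, SE 0.11, adjusted p = 0.0186). Its MA24 rats, at 1251 CPM or more, were all above the MA12 rats, at 1030 CPM or less. *Akap6*, an anchor that holds PKA in place, had 107 ± 6.65 CPM in MA12 and 69.1 ± 12.5 CPM in MA24 (log2FC -0.60, adjusted p = 0.0186). *Prkar2a*, a regulatory subunit of PKA, had 23.5 ± 2.09 and 15.6 ± 3.70 CPM in the same order (log2FC -0.56, adjusted p = 0.0472). *Rasgrp1*, a relative of *Rasgrp2* that activates Ras, had 550 ± 39.4 and 390 ± 61.2 CPM (log2FC -0.47, adjusted p = 0.0335). *Pde7b*, a phosphodiesterase specific for cAMP, had 73.2 ± 3.70 and 54.3 ± 7.81 CPM (log2FC -0.40, adjusted p = 0.0463). In the non-addicted rats the means were 1066 ± 42.4 CPM for *Rap1gap*, 91.2 ± 13.7 for *Akap6* and 22.1 ± 2.52 for *Prkar2a*. Those of *Rasgrp1* and *Pde7b* were 429 ± 52.4 and 65.8 ± 10.9 CPM. Every non-addicted rat was below every MA12 rat for *Rasgrp1* and below every MA24 rat for *Rap1gap*. Otherwise the non-addicted rats overlapped both groups.

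The median log2FC of the 72 genes was -0.11, with 54 below 0 and 18 above, beside -0.00 over all 12652 genes. All 6 adenylyl cyclases tested besides *Adcy5* had a log2FC below 0, between -0.76 and -0.04, and 0 of them were called (edgeR). Without the variance filter 8 of the 72 were called, beside 4.17% of 12652 genes. These were the same 5 and *Gnai1* (log2FC -0.38, adjusted p = 0.0433), *Pde4b* (-0.34, 0.0438) and *Akap9* (-0.29, 0.0448). When 1 rat was left out, *Akap6* kept its call each time (adjusted p 0.0101 to 0.0452) and *Rap1gap* lost it only without MA24 rat 16N (0.0572). *Prkar2a* lost it in 6 of the 8 such fits, and *Rasgrp1* and *Pde7b* in 7 of the 8 each. *Pde7b* also lost it with RLE factors (0.0521) and when 1 fit held all 3 groups (0.0536). *Prkar2a* lost it with RLE factors (0.0524). The count fell to 2 without MA12 rat 21, 31 or 4N or MA24 rat 14N, 15N or 16N, and rose to 13 without MA24 rat 9N. Among rats with N only, *Rasgrp1* was the 1 gene called (log2FC -0.58, adjusted p = 0.0355), and with the kind of number as a covariate 0 were called. The covariate left log2FC of -0.57 for *Akap6*, -0.57 for *Rasgrp1*, -0.49 for *Prkar2a*, -0.45 for *Pde7b* and 0.44 for *Rap1gap* (adjusted p 0.0800 to 0.202).

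In non-addicted vs MA12, edgeR called 0 of the 53 other pathway genes tested and DESeq2 1, and 10 had an unadjusted p below 0.05, beside 0.102%, 1.96% and 12.5% of all genes. In non-addicted vs MA24 these were 0 of 57, 3 and 16, beside 0.168%, 2.62% and 17.6%. The median log2FC of the 72 genes was -0.02 and 0.11 in these comparisons, beside -0.01 and 0.00 over all genes with a mean count above 4.

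**Figure D4:**
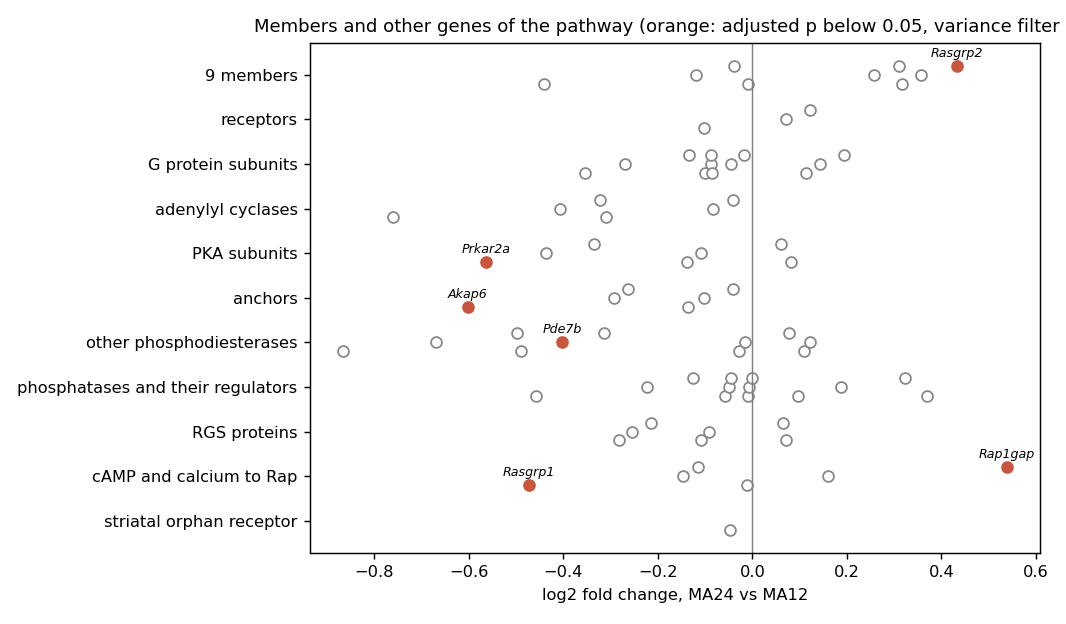
Log2 fold changes between MA24 and MA12 (horizontal axis) of the 9 genes and of 72 other pathway genes by class (rows), with each point 1 gene, small vertical offsets within a row for legibility and orange for an adjusted p below 0.05. *Rasgrp2* (0.43) and *Rap1gap* (0.54) are the called genes above 0, and *Akap6*, *Prkar2a*, *Rasgrp1* and *Pde7b* those below it.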

How the data were processed

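Striatal poly-A RNA from 12 rats was sequenced as paired-end reads. The authors used Cutadapt for trimming, STAR 2.7.0e for alignment to rn6 and featureCounts for counting by gene, and deposited raw counts without normalization. The submitters' processing notes also list HTSeq 0.12.4. How strands and reads at several positions were counted is not given in the sources used here. From the counts, edgeR 4.0.16 in R 4.3.3 compared each pair of groups (8 rats) with TMM and glmQLFTest, after keeping mean counts above 4 and removing the 15% of genes with the lowest variance of log2 CPM. Genes so removed are given from the fit without this filter. On simulated counts with dispersions drawn per gene, the variance filter raised false calls above the nominal rate. Called genes had a Benjamini-Hochberg adjusted p below 0.05 over all genes tested. Levels are CPM, and correlations use log2 CPM with a prior count of 2. Results were recomputed, where the gene passed the filters of that fit, with RLE factors, with edgeR's likelihood ratio test, with DESeq2 1.42.0, under other filters, with all 3 groups in 1 fit, without single rats and by kind of rat number. All 9 genes were named, with the receptors, up to 4 called pathway genes in each direction and comparison, and the closest genes by correlation. The genes and lists were chosen with earlier results of these data known. Nothing states that tissue from different rats was pooled, and each rat was 1 replicate. Python 3.11.15, numpy 2.4.6 and pandas 2.3.3 made the summaries. The markers of 1 cell class are not reported here.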

Additional observations from a re-analysis of the deposited data

Results flagged for a closer look

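*Pde10a* in MA12 had 1 rat apart from the others of its group. Rat 4N measured 703 CPM beside 575 to 584 CPM in the other three, and on the log2 CPM scale its gap to the nearest rat was 0.917 of the whole range of the group, above Dixon's critical value for 4 samples. It was the 1 such case among 36 groups examined, those of the 9 genes and of *Drd1*, *Drd2* and *Adora2a*, where chance gives about 1.8. Without this rat the log2FC of *Pde10a* between MA24 and MA12 was -0.36 (edgeR, adjusted p = 0.168), beside -0.44 with it.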

How the results depend on the processing

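Of 419 single-gene values over all alternatives, 376 kept both direction and side of the threshold, 7 lost a call, 6 gained one and 30 changed sign. The 7 losses were all of *Rasgrp2* in MA24 vs MA12, the 1 call there was to lose among the 27 pairs of gene and comparison. It kept the call in 7 of 9 other settings and in 3 of 8 fits with 1 rat left out. The 6 gains were of *Rgs9* and *Pde10a* in MA24 vs MA12. The count of the 9 genes called in MA24 vs MA12 was 1, and it was 3 with DESeq2, 3 with the likelihood ratio test, 0 with N-numbered rats only, 0 with the kind of number as a covariate, and 0 to 2 with 1 rat left out. For the other pathway genes it was 5, and it was 3 with RLE factors, 12 with DESeq2, 12 with the likelihood ratio test, 9 with no filter, 8 without the variance filter, 1 with N-numbered rats only, 0 with the covariate, and 2 to 13 with 1 rat left out. For these genes the counts in non-addicted vs MA12 were 0, and 1 with DESeq2, and in non-addicted vs MA24 0, 3 with DESeq2, 2 with edgeR's likelihood ratio test and 0 to 3 with 1 rat left out. For all of these, the cause was not tested.

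The sign changes were in 13 of the 27 pairs of gene and comparison, with an adjusted p of at least 0.541. In non-addicted vs MA12 the log2FC of *Ppp1r1b* was 0.00431 with RLE factors, 0.00431 with DESeq2, 0.00487 with all 3 groups in the fit, 0.248 with the covariate, 0.259 with rats without N only and -0.0968 to 0.0898 with 1 rat left out. That of *Gnal* was 0.0195 with the covariate and 0.0312 with rats without N only, and with 1 rat left out *Gng7* ran from -0.0837 to 0.185 and *Rgs9* from -0.0548 to 0.112. In non-addicted vs MA24 the covariate gave 0.138 for *Ppp1r1b*, 0.119 for *Adcy5*, 0.131 for *Gng7*, 0.134 for *Pde1b*, 0.0487 for *Rgs9* and 0.0376 for *Ptpn5*. These values rest on an adjustment that the MA12 rats alone set. With 1 rat left out, *Pde10a* in non-addicted vs MA24 ran from -0.123 to 0.149. In MA24 vs MA12, *Adcy5* ran from -0.117 to 0.0612 and *Pde1b* from -0.0686 to 0.0465. No paired analysis was possible because each rat was killed once and belongs to 1 group. Rats with N only could not be compared in non-addicted vs MA24, which share no kind of number. A gene has no value in an alternative whose variance filter removed it, which was so for most alternatives of *Ptpn5* in non-addicted vs MA12, several of *Gnal* in MA24 vs MA12, and *Ppp1r1b* there with N-numbered rats only. Counting error was at most 1.49% (SD) for any of the 9 genes.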
